A study of Mus musculus with 8 samples.

Results

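The amino acid and endoplasmic reticulum (ER) stress response genes were followed in mouse CD4 T cells with and without Tet2. The group was a list of 40 gene symbols, and a member was measured where the array annotation paired at least 1 probeset with that symbol alone. This held for 38 of the 40 members, each with exactly 1 such probeset, among 19938 genes that could be named in the same way. Aars, the alanyl-tRNA synthetase, and Pycr1, an enzyme of proline synthesis, had no such probeset and were not analysed here.

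The 8 arrays formed 4 groups of 2. They were Th1 cells from Tet2-/- mice, Th1 cells from wild-type mice, Th17 cells from Tet2-/- mice and Th17 cells from wild-type mice, all of the C57BL/6 background. Naive CD4 T cells (CD25-negative, CD62L-high, CD44-low) had been sorted from spleen and lymph node and stimulated through CD3 and CD28. For the Th1 state IL-4 was blocked and IL-12 (10 ng/ml) was given with IL-2 (30 U/ml). For the Th17 state both IL-4 and interferon-γ were blocked, and IL-6 (10 ng/ml) was given with TGF-β1 (0.5 ng/ml). Tet2 is a dioxygenase that oxidises methylated cytosine in DNA. How Tet2 was deleted, in which cells, the age and sex of the mice and the length of culture are not given in the sources used here.

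When amino acids run short, or when unfolded proteins build up in the ER, kinases phosphorylate the initiation factor eIF2α, general protein synthesis slows and the transcription factor ATF4 is translated. ATF4 then raises the genes of amino acid transport, serine and asparagine synthesis, one-carbon metabolism and tRNA charging. The ER also signals through ATF6 and through IRE1, which splices Xbp1 messenger RNA, and both raise chaperones and degradation factors of the ER. Activated T cells draw on these programs because they grow quickly and take up large amounts of amino acids.

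The promoter sequences of members that carry the binding letters of these pathways are shown as a description. The members were named as genes of this response, so their share with the letters is not independent support for the list. RefSeq promoter windows (GRCm38.p6), from 250 bases before to 50 bases after an annotated start, were on hand for 32 of the 38 measured members. The letters TGATGNAA, on the other strand TTNCATCA, are the core of the C/EBP-ATF response element to which ATF4 binds with C/EBP partners. They stood in the windows of 12 of 32 members, a share of 37.5%, against 4.51% of 27025 genes with a window. Asns, Atf3, Chac1, Gars, Herpud1, Nupr1, Pck2, Slc1a4, Slc7a11, Tars, Trib3 and Vldlr held them. Of the 13 matches, 9 read TGATGCAA or its complement TTGCATCA, in 8 members, and Slc7a11, the cystine importer, held a pair of them. The Slc7a11 window, chr3:50443564-50443863 on the minus strand, lies inside the gene (chr3:50364936-50499087) and not at its outer start. The Vldlr window also lies inside its gene. The ER stress response element, read by ATF6 or XBP1 together with NF-Y, is spelled CCAAT, then 9 bases of any kind, then CCACG, and was also searched on both strands. It stood in 1 of 32 members, Hspa5, against 0.137% of genes. A match is a description of the letters in this window and does not show that a factor binds there. The windows of 5 members follow, each 5′ to 3′ on the strand of its gene, with the matched letters in capitals.
Chac1: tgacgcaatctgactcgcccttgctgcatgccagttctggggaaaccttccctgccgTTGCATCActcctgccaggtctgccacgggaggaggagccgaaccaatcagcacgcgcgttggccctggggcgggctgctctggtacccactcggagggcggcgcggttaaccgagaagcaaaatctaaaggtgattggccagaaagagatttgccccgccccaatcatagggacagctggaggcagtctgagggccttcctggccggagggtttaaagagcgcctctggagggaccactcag
Atf3: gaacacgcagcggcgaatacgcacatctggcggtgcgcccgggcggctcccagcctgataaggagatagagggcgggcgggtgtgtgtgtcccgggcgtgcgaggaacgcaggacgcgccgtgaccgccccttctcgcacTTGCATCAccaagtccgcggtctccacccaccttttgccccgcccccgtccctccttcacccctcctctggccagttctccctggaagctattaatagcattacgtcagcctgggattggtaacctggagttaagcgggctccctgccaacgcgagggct
Asns: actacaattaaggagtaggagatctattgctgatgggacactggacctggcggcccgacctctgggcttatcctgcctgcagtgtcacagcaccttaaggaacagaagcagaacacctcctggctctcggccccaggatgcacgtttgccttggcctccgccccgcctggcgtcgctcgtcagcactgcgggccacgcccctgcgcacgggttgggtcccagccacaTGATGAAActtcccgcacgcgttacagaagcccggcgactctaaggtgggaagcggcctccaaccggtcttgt
Herpud1: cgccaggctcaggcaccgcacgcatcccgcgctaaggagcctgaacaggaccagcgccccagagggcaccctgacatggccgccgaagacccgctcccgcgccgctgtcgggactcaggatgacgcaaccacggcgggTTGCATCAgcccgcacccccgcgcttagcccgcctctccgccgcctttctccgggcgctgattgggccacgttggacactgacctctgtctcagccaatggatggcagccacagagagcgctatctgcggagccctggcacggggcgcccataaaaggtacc
Hspa5: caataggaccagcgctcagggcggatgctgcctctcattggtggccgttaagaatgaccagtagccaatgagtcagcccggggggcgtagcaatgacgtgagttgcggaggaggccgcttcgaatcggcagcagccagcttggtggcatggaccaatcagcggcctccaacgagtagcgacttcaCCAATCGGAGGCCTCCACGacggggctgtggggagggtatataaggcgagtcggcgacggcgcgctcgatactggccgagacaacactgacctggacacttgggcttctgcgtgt

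The Chac1 window lies at chr2:119350992-119351291 on the plus strand, and its match covers bases -193 to -186 from the start of the gene. For Atf3 the window is chr1:191183284-191183583 on the minus strand, with the match at -110 to -103. The Asns window is chr6:7693160-7693459 on the minus strand, and its match at -23 to -16 has the letters TGATGAAA. Herpud1 has its match at -112 to -105 in chr8:94386179-94386478 on the plus strand. In Hspa5 the ER stress response element covers -65 to -47 of chr2:34771840-34772139 on the plus strand. No window was on hand for Slc1a5, Slc7a3, Slc7a5, Cth, Aldh1l2 and Nars.

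The arrays were alike in scale, with medians over all probesets of 6.47 to 6.53 log2 units. Correlations across genes were 0.990 to 0.994 between arrays of one group and 0.977 to 0.981 between the cell types. The T cell gene Cd3e and the helper T cell gene Cd4 read above 10 log2 units on every array, and Cd3d read 8.675 to 9.52. The CD8 T cell genes Cd8a and Cd8b1 read at most 6.63 on any array. The 6 measured Th17 markers were called higher in Th17 than in Th1 cells in both genotypes. Of the 7 measured Th1 markers 4 were called lower in Th17 cells in each genotype, and Il18r1 was called higher in Tet2-/- Th17 cells. Markers of other cells had mean levels per array of 5.29 to 5.51 (4 of B cells), 4.95 to 5.58 (4 of NK cells), 5.58 to 5.84 (7 of myeloid cells) and 6.52 to 7.18 (8 of stromal and endothelial cells). Within these lists Cd79a, Klrb1c and Lyz2 read at most 5.06 on any array, while Cd79b, Eomes (a factor that T cells also use) and Cd68 reached 6.77, 8.26 and 7.99, and Sparc, Pecam1 and Lum each passed 8 log2 units on at least 1 array. The probeset of Tet2 read 8.12 and 7.97 in Tet2-/- Th1 cells, against 8.14 and 8.03 in wild-type Th1 cells, and 8.37 and 8.42 in Tet2-/- Th17 cells, against 8.53 and 8.51 in wild-type Th17 cells. Whether it lies within the deleted part is not given, so the labels of genotype remain unchecked here. Sex-linked transcripts set the Th17 arrays apart from each other. The mean of Eif2s3y, Kdm5d and Uty was 8.71 and 4.85 in Tet2-/- Th17 cells, against 8.80 and 7.82 in wild-type Th17 cells, and lay between 7.94 and 8.24 on the 4 Th1 arrays. Xist read 8.62 and 11.3 in Tet2-/- Th17 cells, against 5.20 and 10.1 in wild-type Th17 cells, and at most 5.11 in Th1 cells. The fit was therefore repeated without the Th17 arrays at both ends of the Y-linked level, Tet2-/- replicate 2 and wild-type replicate 1. Of the Th17 arrays, wild-type replicate 1 had the Xist value nearest to the Th1 arrays. For Th17 minus Th1 this fit therefore leaves the sex-linked difference in place. For single members, values of that fit are given where they move a printed difference by over 1.5 times, turn it or end a call. The further gene lists and the medians by role carry no such values.

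The members were mostly above the level of silent genes. Their means over the 8 arrays ran from 5.12 to 11.4 log2 units, and 14 of 38 lay in the top 10 percent of all genes. For comparison, 1015 olfactory receptor genes, which T cells are not known to need, had a median of 5.30 and a 95th percentile of 6.76. The 5 members under that percentile were Slc7a11, Aldh1l2 (a mitochondrial folate enzyme), Vldlr (a lipoprotein receptor), Cebpb (a partner of ATF4) and Nupr1 (a small stress-induced chromatin protein), and values of these genes may be mostly background. Cbs, Chac1 and Trib3 lay just above it, with means of 6.94, 7.05 and 7.06. Chac1 read as low as 6.78 on 1 array, so its small differences may lie at the edge of background. Within groups the SD of a member over its 2 arrays had a median of 0.11 log2 units and reached 0.59 for Herpud1 in Tet2-/- Th1 cells.

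In Th1 cells most members read slightly higher without Tet2, and none passed the test. Of the 38 members, 32 lay above the wild-type mean and 6 below it, against 52.2% of all genes above and 47.8% below, and the median difference was 0.13 log2 units, against 0.01 over all genes. Serine and one-carbon enzymes had a median of 0.24, with 5 of 6 above, other amino acid enzymes 0.22 with 5 of 5, and transporters 0.15 with 6 of 7. The 5 genes of the ER folding arm had a median of 0.04, with 3 above. By limma's moderated test with Benjamini-Hochberg adjustment, 0 members were called at an adjusted p under 0.05, against 0.00502% of all genes. At an unadjusted p under 0.05 there were 3 members, all higher, against 5.74% of all genes (2.77% higher and 2.97% lower). The arrays of the genotypes did not overlap for 14 members higher in Tet2-/- cells, against 18.3% of all genes, and for 1 lower, Sdf2l1, against 14.4%.

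Slc1a5, the neutral amino acid exchanger that brings glutamine into T cells (chr7:16781334-16798274, GRCm38.p6, as for the positions below), had the largest difference among the members. It read 11.04 and 10.60 in Tet2-/- Th1 cells, against 10.25 and 10.01 in wild-type Th1 cells. Both Tet2-/- arrays lay above both wild-type arrays, with a difference of 0.69 (SE 0.21, 95% confidence interval 0.24 to 1.13, 1.61-fold, limma adjusted p = 0.824). Slc7a5 and Slc3a2, the light and heavy chains of the leucine transporter, differed by 0.22 and 0.13, and the arginine transporter Slc7a1 by 0.15. Slc7a5 read 11.49 and 11.62 in Tet2-/- cells, against 11.14 and 11.52 in wild-type cells. Its groups overlapped.

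Chac1, a glutathione-degrading enzyme that serves as a readout of ATF4 activity (chr2:119351242-119354326), read 7.13 and 7.74 in Tet2-/- Th1 cells, against 6.94 and 6.92 in wild-type Th1 cells. The difference was 0.51 (SE 0.16, interval 0.15 to 0.86, limma adjusted p = 0.824). The arrays did not overlap. Tet2-/- replicate 2 was the high array, and the difference was 0.20 without it and 0.81 without replicate 1. Ddit4 and Sesn2, which hold back the kinase mTORC1, differed by -0.06 and 0.04.

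Serine synthesis begins with Phgdh (chr3:98313171-98339969), which read 8.33 and 8.52 in Tet2-/- Th1 cells, against 8.13 and 7.97 in wild-type Th1 cells. All Tet2-/- values were higher, with a difference of 0.38 (SE 0.15, interval 0.05 to 0.70, limma adjusted p = 0.827). Psat1, the next enzyme, read 9.78 and 10.02 in Tet2-/- cells, against 9.57 and 9.68 in wild-type cells, a difference of 0.28 without overlap. The last enzyme, Psph, overlapped, at 7.75 and 8.09 in Tet2-/- cells, against 7.86 and 7.72 in wild-type cells. Mthfd2, which moves one-carbon units through mitochondrial folate, read 9.51 and 10.05 in Tet2-/- cells, against 9.53 and 9.44 in wild-type cells. Its difference of 0.30 rested on replicate 2, and replicate 1 lay between the wild-type arrays. Shmt2, which splits serine for the same pathway, differed by 0.21 without overlap.

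Aldh18a1, which opens proline synthesis, read 8.78 and 9.24 in Tet2-/- Th1 cells, against 8.74 and 8.55 in wild-type Th1 cells, a difference of 0.37 (limma adjusted p = 0.853). Cth, which makes cysteine from cystathionine (chr3:157894248-157925081), read 8.28 and 8.36 in Tet2-/- cells, against 8.16 and 8.04 in wild-type cells, a difference of 0.22. For both genes the Tet2-/- arrays lay above the wild-type arrays. Asns, the asparagine synthetase, read 11.03 and 11.01 in Tet2-/- cells, against 10.50 and 10.98 in wild-type cells. The difference of 0.28 rested on the low first wild-type array.

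Among the regulators, Atf3, a stress-induced relative of ATF4 (chr1:191170296-191183333), read 9.76 and 9.84 in Tet2-/- Th1 cells, against 9.50 and 9.32 in wild-type Th1 cells. The groups did not overlap and the difference was 0.39 (SE 0.18, limma adjusted p = 0.853). Atf4 itself read 9.02 and 9.15 in Tet2-/- cells, against 8.88 and 8.99 in wild-type cells, 0.15 higher with an interval from -0.14 to 0.44. ATF4 is controlled mainly through translation, which an array of total RNA does not measure. Ddit3, which encodes the pro-apoptotic factor CHOP, read 7.38 and 7.59 in Tet2-/- cells, against 7.68 and 7.18 in wild-type cells, a difference of 0.06 with full overlap.

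The ER chaperone Hspa5 (BiP) read 11.54 and 11.34 in Tet2-/- Th1 cells, against 11.29 and 11.67 in wild-type Th1 cells, and Xbp1 read 10.30 and 10.13 in Tet2-/- cells, against 10.11 and 10.25 in wild-type cells. Their differences of -0.04 and 0.04 had intervals from -0.36 to 0.28 and from -0.26 to 0.34. The arrays of both genes overlapped. The probeset of Xbp1 is not stated to tell the spliced from the unspliced form. Herpud1, a membrane protein of ER-associated degradation, ranged over 8.24 and 9.07 in Tet2-/- cells, against 8.54 and 8.19 in wild-type cells.

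**Figure D1:**
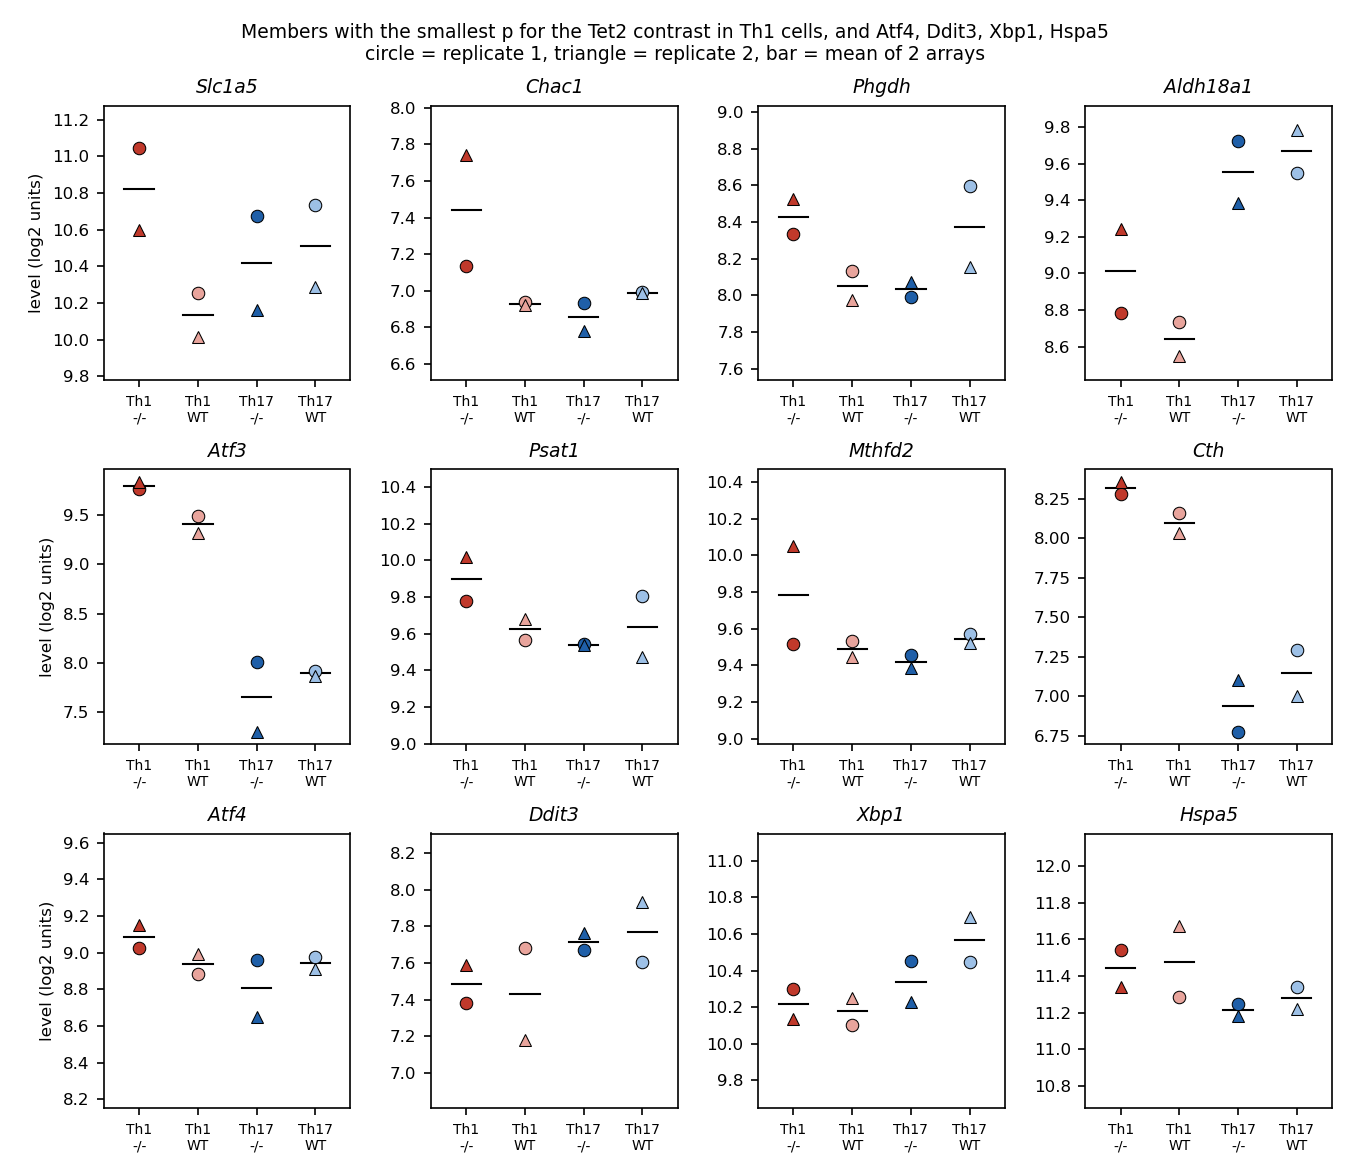
Levels in log2 units (vertical axis) on each of the 8 arrays for the 8 members with the smallest p in Th1 cells and for Atf4, Ddit3, Xbp1 and Hspa5, with Tet2-/- left of wild-type for each cell type. Circles are replicate 1, triangles replicate 2 and bars the mean of 2 arrays. Slc1a5, Chac1, Phgdh, Aldh18a1, Atf3, Psat1 and Cth have both Tet2-/- Th1 arrays above both wild-type Th1 arrays, while Ddit3, Xbp1 and Hspa5 overlap.

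A single array carried much of the Th1 shift. Tet2-/- replicate 2 was the highest of the 4 Th1 arrays for 22 of 38 members, against 20.6% of all genes, and replicate 1 for 7, against 28.4%. Without replicate 2 the median difference of the members was 0.07, with 25 above and 13 below, and without replicate 1 it was 0.22, with 29 above and 9 below. Cell cycle genes moved with the genotype in Th1 cells. All 21 measured ones were lower in Tet2-/- cells, with a median of -0.36 and 0 called, and their median deviation from the mean of the 8 arrays was -0.18 and -0.12 in Tet2-/- cells, against 0.06 and 0.30 in wild-type cells. Of the stromal and endothelial markers 6 of 8 were higher in Tet2-/- cells, 4 of them without overlap, with mean levels of 6.69 and 6.71 in Tet2-/- cells, against 6.52 and 6.57 in wild-type cells. The 4 NK and 4 B cell markers were all lower, with medians of -0.19 and -0.05, and 4 of 7 myeloid markers were higher, with a median of 0.04. The part of these genes in the result was not tested. In bulk RNA, fewer cells of a kind and less RNA per cell cannot be told apart.

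In Th17 cells the members leaned the other way, and again none passed the test. Of 38 members, 9 lay above and 29 below the wild-type mean, against 56.6% of all genes above and 43.4% below, with a median of -0.10 log2 units, against 0.02 over all genes. All 6 serine and one-carbon enzymes and all 5 tRNA synthetases were below, with medians of -0.12 and -0.15, and so were 6 of 7 transporters, with a median of -0.16. By limma 0 members and 0 of 19938 genes were called, a share of 0%. At an unadjusted p under 0.05 there was 1 member, Phgdh, lower, against 4.25% of all genes (2.81% higher and 1.44% lower). The arrays did not overlap for 11 members lower in Tet2-/- cells, against 13.3% of all genes, and for 2 higher, Ddit4 and Slc7a3, against 19.9%.

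Phgdh read 7.99 and 8.07 in Tet2-/- Th17 cells, against 8.60 and 8.15 in wild-type Th17 cells. The arrays did not overlap, with the second wild-type array close to the Tet2-/- arrays, and the difference was -0.34 (SE 0.15, interval -0.67 to -0.01, limma adjusted p = 0.999). Without wild-type replicate 1 it was -0.12, and without both Y-end arrays -0.16. Mthfd2 read 9.46 and 9.38 in Tet2-/- cells, against 9.57 and 9.52 in wild-type cells, 0.12 lower on the log2 scale without overlap and -0.07 without the Y-end arrays. Aldh1l2, at the level of silent genes, read 5.25 and 5.38 in Tet2-/- cells, against 5.56 and 5.58 in wild-type cells.

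tRNA synthetases charge tRNAs with their amino acids, and several are ATF4 targets. Nars, for asparagine, read 10.39 and 10.15 in Tet2-/- Th17 cells, against 10.59 and 10.44 in wild-type Th17 cells, a difference of -0.25 (limma adjusted p = 0.999). The difference was -0.13 without Tet2-/- replicate 2, -0.37 without Tet2-/- replicate 1, and -0.05 without both Y-end arrays. For threonine, Tars read 8.44 and 8.29 in Tet2-/- cells, against 8.57 and 8.65 in wild-type cells, a difference of -0.24. Both genes had all Tet2-/- values under all wild-type values. Eprs, for glutamate and proline, also did not overlap, with a difference of -0.15, whereas Gars and Sars overlapped at -0.10 and -0.06, or 0.03 and -0.02 without the Y-end arrays.

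Slc7a1 read 9.43 and 9.33 in Tet2-/- Th17 cells, against 9.61 and 9.61 in wild-type Th17 cells, a difference of -0.23 without overlap. Slc7a5 was likewise lower on both Tet2-/- arrays, at 11.16 and 11.05, against 11.24 and 11.38 in wild-type cells. Slc1a5, the member with the largest Th1 difference, overlapped, at 10.68 and 10.16 in Tet2-/- cells, against 10.73 and 10.29 in wild-type cells, with a difference of -0.09. The spread within each genotype was larger than the difference between them, and without the Y-end arrays the direction turned, to 0.39.

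Xbp1 read 10.45 and 10.23 in Tet2-/- Th17 cells, against 10.44 and 10.69 in wild-type Th17 cells, a difference of -0.23 with overlap. Cth read 6.78 and 7.10 in Tet2-/- cells, against 7.29 and 7.002 in wild-type cells, a difference of -0.21 with overlap. Ddit4, also known as REDD1, was among the 9 members above the wild-type mean, at 8.90 and 8.86 in Tet2-/- cells, against 8.66 and 8.72 in wild-type cells, a difference of 0.19 without overlap. Atf4, Ddit3 and Hspa5 differed by -0.14, -0.05 and -0.07, with intervals that reached from -0.43 to 0.31 over the 3 genes. Without the Y-end arrays they were 0.05, -0.26 and 0.02, and Atf3 was 0.14, against -0.24 with all arrays. Chac1 read 6.93 and 6.78 in Tet2-/- cells, against 6.99 and 6.99 in wild-type cells, a difference of -0.13, or -0.06 without the Y-end arrays.

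The lean in Th17 cells rested on 1 array. Tet2-/- replicate 2, the array with the lowest Y-linked level, was the lowest of the 4 Th17 arrays for 19 of 38 members, against 23.2% of all genes. Without it the members split evenly, 19 above and 19 below, with a median of 0.00. Without both arrays at the ends of the Y-linked level 17 were above and 21 below, with a median of -0.04, and 14 were above and 24 below, with a median of -0.03, when that level entered the fit as a covariate. Without Tet2-/- replicate 1 the split was 6 above and 32 below, with a median of -0.15. On Tet2-/- replicate 2 the cell cycle genes were at their highest, with a median deviation of 0.35. It was -0.21 on Tet2-/- replicate 1, against -0.13 and -0.10 in wild-type cells. Of the markers of other cells, all 7 myeloid and all 8 stromal and endothelial markers read higher in Tet2-/- Th17 cells, with medians of 0.12 and 0.17. The mean level of the myeloid markers was 5.66 and 5.74 in Tet2-/- cells, against 5.58 and 5.59 in wild-type cells, and that of the stromal markers was 7.11 and 7.18 in Tet2-/- cells, against 6.80 and 6.90 in wild-type cells. Their part in the result was not tested.

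**Figure D2:**
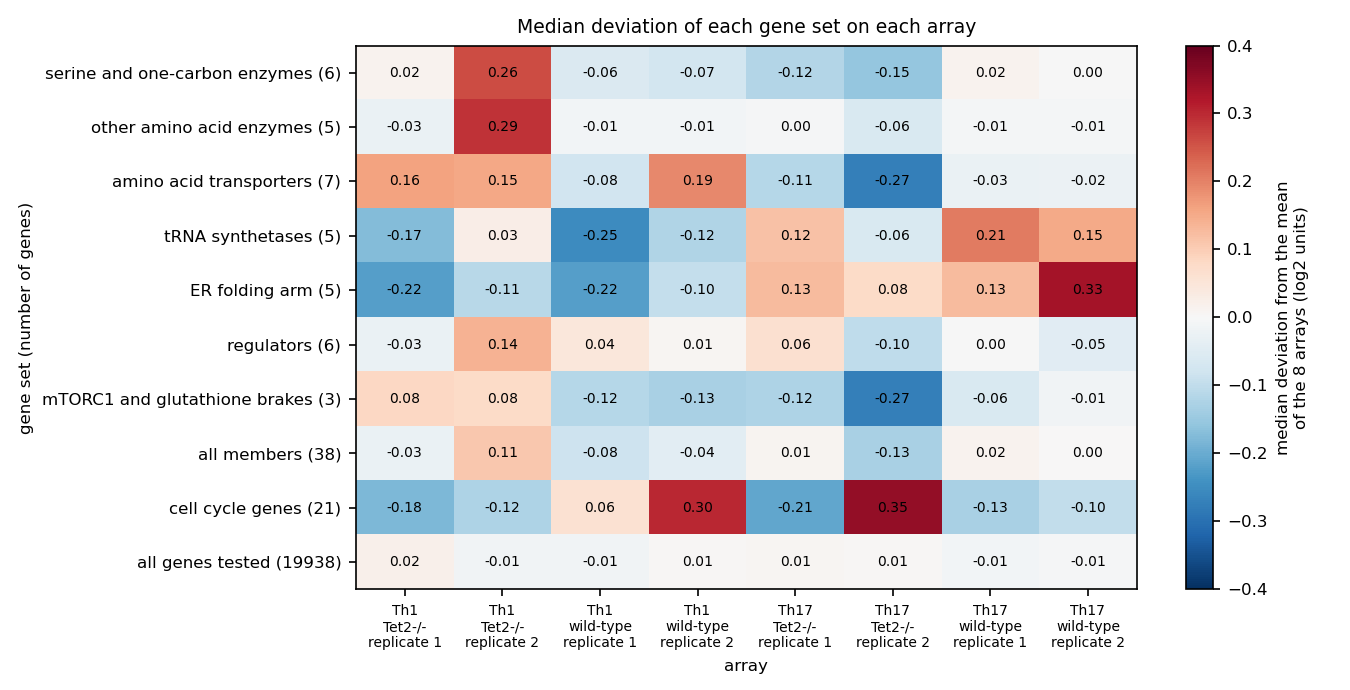
Median deviation of each gene set from its mean over the 8 arrays, in log2 units (colour and printed number), by array (columns, Tet2-/- left of wild-type for each cell type) and by role (rows, number of genes in brackets). Over all members the highest array is Th1 Tet2-/- replicate 2, at 0.11, and the lowest is Th17 Tet2-/- replicate 2, at -0.13, while all genes stay between -0.01 and 0.02.

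The genotype differences had opposite signs for many members. The difference was above 0 in Th1 cells and below 0 in Th17 cells for 24 of 38 members, against 21.7% of all genes, above 0 in both for 8, below 0 in both for 5, and the other way round for 1, Ddit4. Both comparisons lacked overlap in these directions for 2 members, Chac1 and Phgdh, against 1.81% of all genes. When the difference between the genotype contrasts was itself tested (Th17 minus Th1), limma called 0 members and 0 of 19938 genes, a share of 0%. At an unadjusted p under 0.05 there were 4 members, all lower, against 4.55% of all genes (2.93% higher and 1.63% lower). They were Slc1a5 at -0.78 (SE 0.29, interval -1.41 to -0.15), Phgdh at -0.72 (SE 0.21), Chac1 at -0.64 (SE 0.23) and Atf3 at -0.63 (SE 0.26), each with an adjusted p of 0.999. With 1 array left out they ran over -1.03 to -0.52 for Slc1a5, -0.94 to -0.50 for Phgdh, -0.95 to -0.34 for Chac1 and -0.98 to -0.28 for Atf3. Chac1 was smallest without Tet2-/- Th1 replicate 2, and Slc1a5 and Atf3 without Tet2-/- Th17 replicate 2. Without both Y-end arrays the values were -0.30 for Slc1a5, -0.54 for Phgdh, -0.56 for Chac1 and -0.25 for Atf3. The median over the members was -0.19, with 6 above 0 and 32 below (52.7% of all genes above and 47.3% below), against 0.01 over all genes. It was -0.32 without wild-type Th1 replicate 2, -0.29 without Tet2-/- Th1 replicate 1, and -0.26 without Tet2-/- Th17 replicate 1. Averaged over both cell types, 28 of 38 members were higher and 10 lower without Tet2, against 55.2% of all genes higher and 44.8% lower, with a median of 0.03 (-0.02 without Tet2-/- Th1 replicate 2) and, by limma, 0 called, against 0% of all genes. There 0 members had an unadjusted p under 0.05, against 5.32% of the genes tested (3.37% higher and 1.95% lower).

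**Figure D3:**
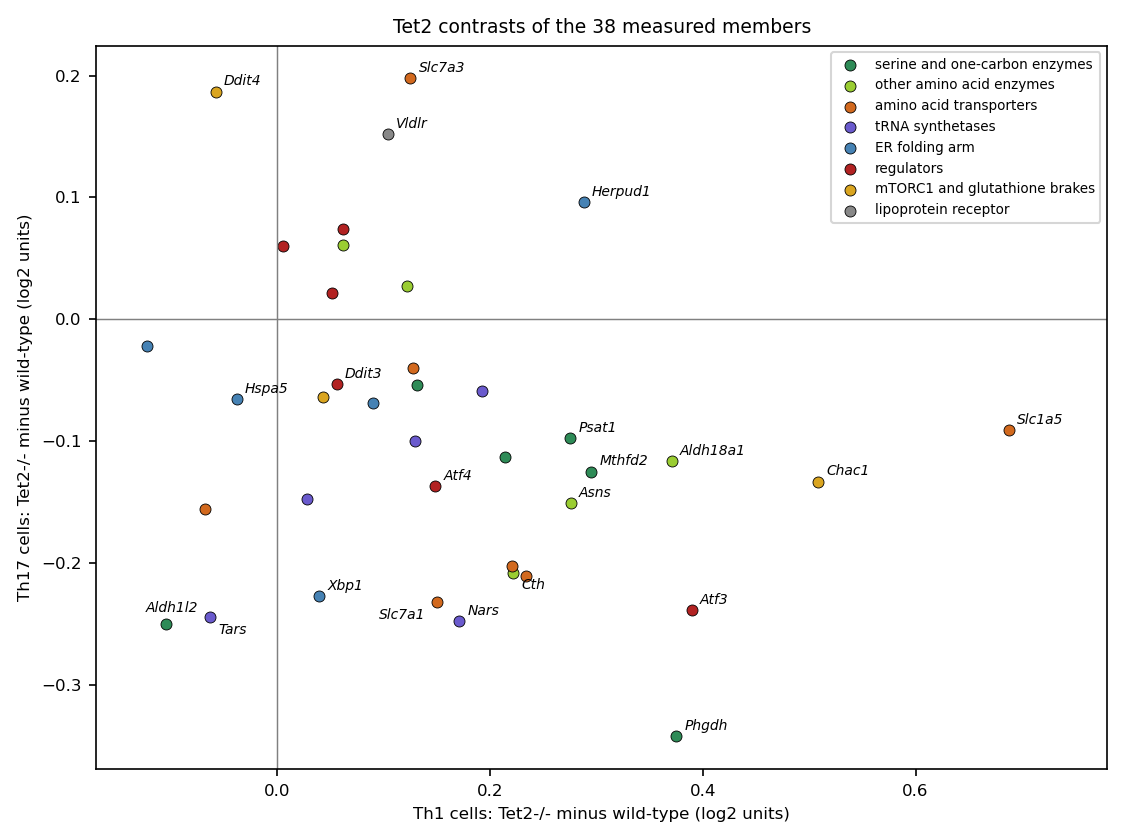
Each point is 1 of the 38 measured members, coloured by role, with its Tet2-/- minus wild-type difference in Th1 cells on the horizontal axis and in Th17 cells on the vertical axis, both in log2 units. Most points (24 of 38) lie at lower right, above 0 in Th1 cells and below 0 in Th17 cells, with Slc1a5, Chac1, Atf3 and Phgdh farthest to the right. None of these differences was called.

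Between the cell types some members did pass the test. Xist read at most 5.11 on the Th1 arrays, against 8.62, 11.3, 5.20 and 10.1 on the Th17 arrays. Cell type and sex-linked level were thus partly confounded in these comparisons. Atf3 and Cth were lower in Th17 than in Th1 cells in both genotypes, with differences of -2.15 to -0.95 log2 units, and Ddit4 and Dnajb9 were higher in both, by 0.48 to 0.73. In Tet2-/- cells limma called 6 members, against 10.4% of all genes: Ddit4, Dnajb9 and Sdf2l1 were higher (7.14% of all genes) and Atf3, Cth and Chac1 lower (3.29%). In wild-type cells it called 7, against 8.47% of all genes: Aldh18a1, Dnajb9, Nars, Ddit4 and Sars were higher (5.30%) and Atf3 and Cth lower (3.17%). These calls were 15.8% of the members in Tet2-/- cells and 18.4% in wild-type cells, and the shares were not compared by a test. The median over the members was -0.15 in Tet2-/- cells, with 16 higher and 22 lower (48.8% and 51.2% of all genes), and 0.06 in wild-type cells, with 23 higher and 15 lower (47.2% and 52.8%), against -0.01 over all genes in each. In Tet2-/- cells it was -0.02 without Th1 replicate 2 and -0.08 without Th17 replicate 2. Under quantile normalization the calls split 1 higher and 6 lower in Tet2-/- cells (5.53% and 3.31% of all genes), and 3 higher and 2 lower in wild-type cells (3.80% and 3.11%).

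Atf3 read 8.01 and 7.30 in Tet2-/- Th17 cells, against 9.76 and 9.84 in Tet2-/- Th1 cells, and fell by 2.15 (SE 0.18, 4.42-fold, limma adjusted p = 1.56e-05). In wild-type cells it read 7.92 and 7.87 in Th17 cells, against 9.50 and 9.32 in Th1 cells, and fell by 1.52 (2.86-fold, limma adjusted p = 0.000272). Every Th17 array lay more than 1 log2 unit below every Th1 array. The difference of these differences, -0.63, is the one already given above.

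Cth read 6.78 and 7.10 in Tet2-/- Th17 cells, against 8.28 and 8.36 in Tet2-/- Th1 cells, and fell by 1.38 (SE 0.14, 2.60-fold, limma adjusted p = 6.14e-05). Wild-type cells gave 7.29 and 7.002 in Th17 cells, against 8.16 and 8.04 in Th1 cells, and fell by 0.95 (1.93-fold, limma adjusted p = 0.00125). The cell types were far apart in both genotypes. Cbs, which makes the cystathionine that CTH splits, differed by 0.06 in each genotype, or by 0.14 in Tet2-/- cells without the Y-end arrays. Atf3 and Cth were called in all 20 alternatives tried in Tet2-/- cells and all 21 in wild-type cells.

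Ddit4 read 8.90 and 8.86 in Tet2-/- Th17 cells, against 8.23 and 8.08 in Tet2-/- Th1 cells, and rose by 0.73 (limma adjusted p = 0.00218). In wild-type cells it read 8.66 and 8.72 in Th17 cells, against 8.12 and 8.30 in Th1 cells, and rose by 0.48 (limma adjusted p = 0.0282). The call held under all 20 alternatives in Tet2-/- cells and under 12 of 21 in wild-type cells. All 4 Th17 arrays were above all 4 Th1 arrays. Sesn2, the other mTORC1 inhibitor among the members, ran the opposite way, at -0.52 in Tet2-/- and -0.41 in wild-type cells, and was not called. Without the Y-end arrays Sesn2 was -0.22 in wild-type cells.

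The ER folding arm read higher in Th17 cells for 4 of 5 genes in both genotypes, Hspa5 being the exception. Dnajb9, a co-chaperone of BiP, read 8.45 and 8.11 in Tet2-/- Th17 cells, against 7.68 and 7.92 in Tet2-/- Th1 cells, and rose by 0.48 (limma adjusted p = 0.0499). Wild-type cells gave 8.33 and 8.37 in Th17 cells, against 7.63 and 7.79 in Th1 cells, and a rise of 0.64 (limma adjusted p = 0.0154). Sdf2l1, another ER-resident partner of BiP, read 8.34 and 8.48 in Tet2-/- Th17 cells, against 8.01 and 7.95 in Tet2-/- Th1 cells, and rose by 0.43 (limma adjusted p = 0.0377). In wild-type cells its values were 8.36 and 8.51 in Th17 cells, against 8.07 and 8.14 in Th1 cells, and the difference of 0.33 was not called. The cell types did not overlap for either gene. The calls depended on the processing as well as on single arrays. In Tet2-/- cells Dnajb9 was called under 9 of 20 alternatives and Sdf2l1 under 11 of 20, and both calls were lost under quantile normalization. In wild-type cells Dnajb9 was called under 16 of 21. Herpud1 differed by 0.61 in Tet2-/- and 0.80 in wild-type cells, with limma adjusted p of 0.12 and 0.0509. It became called under 1 of 20 alternatives in Tet2-/- cells and under 7 of 21 in wild-type cells. Its Tet2-/- Th17 arrays read 9.41 and 9.12, against 8.24 and 9.07 in Tet2-/- Th1 cells. Wild-type Th17 arrays read 8.99 and 9.34, against 8.54 and 8.19 in wild-type Th1 cells. Xbp1 differed by 0.12 in Tet2-/- cells (0.23 without the Y-end arrays) and 0.39 in wild-type cells, and Hspa5 by -0.23 and -0.20, with no call. Under 1 of 21 alternatives Xbp1 became called in wild-type cells.

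Aldh18a1 read 9.72 and 9.38 in Tet2-/- Th17 cells, against 8.78 and 9.24 in Tet2-/- Th1 cells, a difference of 0.54 that was not called (limma adjusted p = 0.0659). It became called under 3 of 20 alternatives. In wild-type cells it read 9.55 and 9.79 in Th17 cells, against 8.74 and 8.55 in Th1 cells, and rose by 1.03 (2.04-fold, limma adjusted p = 0.00282). The cell types did not overlap in either genotype. The difference between these differences was -0.49 (interval -1.01 to 0.04) and was not called.

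The tRNA synthetases among the members read higher in Th17 cells for all 5 genes in both genotypes, except that quantile normalization left 3 of 5 higher in Tet2-/- cells. Of 13 cytoplasmic tRNA synthetases outside the members, 7 were higher and 6 lower in Tet2-/- Th17 cells (median 0.10), with 0 called higher and 1 lower. In wild-type Th17 cells 12 of these 13 were higher and 1 lower (median 0.16), with 0 called. Nars read 10.39 and 10.15 in Tet2-/- Th17 cells, against 9.97 and 10.25 in Tet2-/- Th1 cells, with overlap and a difference of 0.16. In wild-type cells it read 10.59 and 10.44 in Th17 cells, against 9.84 and 10.04 in Th1 cells, and rose by 0.58 (limma adjusted p = 0.0282). Sars, for serine, read 10.08 and 10.10 in Tet2-/- Th17 cells, against 9.77 and 9.95 in Tet2-/- Th1 cells, a difference of 0.23. Wild-type cells gave 10.20 and 10.09 in Th17 cells, against 9.59 and 9.75 in Th1 cells, and a rise of 0.48 (limma adjusted p = 0.0348). In wild-type cells the Nars call held under 14 of 21 alternatives and the Sars call under 9 of 21. The Sars call was lost with quantile normalization, array weights, the Y-linked covariate and the arrays of the contrast alone, among others. Without the Y-end arrays the Nars difference in Tet2-/- cells was 0.28.

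Chac1 was called lower in Th17 cells among Tet2-/- cells, at 6.93 and 6.78 in Tet2-/- Th17 cells, against 7.13 and 7.74 in Tet2-/- Th1 cells, and fell by 0.58 (limma adjusted p = 0.0394). Wild-type cells gave 6.99 and 6.99 in Th17 cells, against 6.94 and 6.92 in Th1 cells, a difference of 0.06. The comparison uses the same Tet2-/- Th1 arrays as the Th1 genotype contrast and is not independent of it, and the call was lost without Tet2-/- Th1 replicate 2, where the difference was -0.28. It held under 11 of 20 alternatives. Transporters were lower in Th17 cells for all 7 members among Tet2-/- cells (median -0.40), against 5 of 7 in wild-type cells (median -0.09), with 0 called in each. Serine and one-carbon enzymes were lower for 6 of 6 in Tet2-/- cells, with a median of -0.31. They were higher for 5 of 6 in wild-type cells, with a median of 0.09, or for 3 of 6 with a median of -0.02 under quantile normalization. For each gene the change between genotypes here equals the difference of the genotype contrasts on the same arrays, so it is no separate result. That difference had medians of -0.38 for transporters and -0.35 for serine and one-carbon enzymes, with 0 called. Atf4 differed by -0.28 in Tet2-/- and 0.00 in wild-type cells, and Ddit3 by 0.23 and 0.34, none of them called. Atf4 was -0.13 in Tet2-/- cells without the Y-end arrays.

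Leaving out arrays moved the number of calls. In Tet2-/- cells 3 of the 6 were left without Th17 replicate 1 (Atf3, Ddit4 and Cth), and the same 3 without both arrays at the ends of the Y-linked level. The count was 4 without Th17 replicate 2, and also 4 without either wild-type Th17 array, which enter through the shared spread. In wild-type cells 3 of the 7 were left (Atf3, Cth and Aldh18a1) without Th17 replicate 1, without Th17 replicate 2, without Th1 replicate 1, or without both arrays at the ends of the Y-linked level. Cell cycle genes ran in opposite directions in the genotypes here, with 17 of 21 higher in Th17 among Tet2-/- cells (median 0.19) and 21 of 21 lower among wild-type cells (median -0.26). Markers of other cells also differed between the cell types. Of the 8 stromal and endothelial markers 3 were called higher and 1 lower in Tet2-/- Th17 cells, and 2 higher and 1 lower in wild-type Th17 cells, with Lum at 2.87 and 1.78, Pecam1 at 1.13 and 1.32, and Sparc at -1.06 and -0.75. Myeloid markers were lower for 6 of 7 in Tet2-/- and 7 of 7 in wild-type Th17 cells, with 0 called by limma, and Eomes of the NK list was called lower in both. The part of these genes in the result was not tested.

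**Figure D4:**
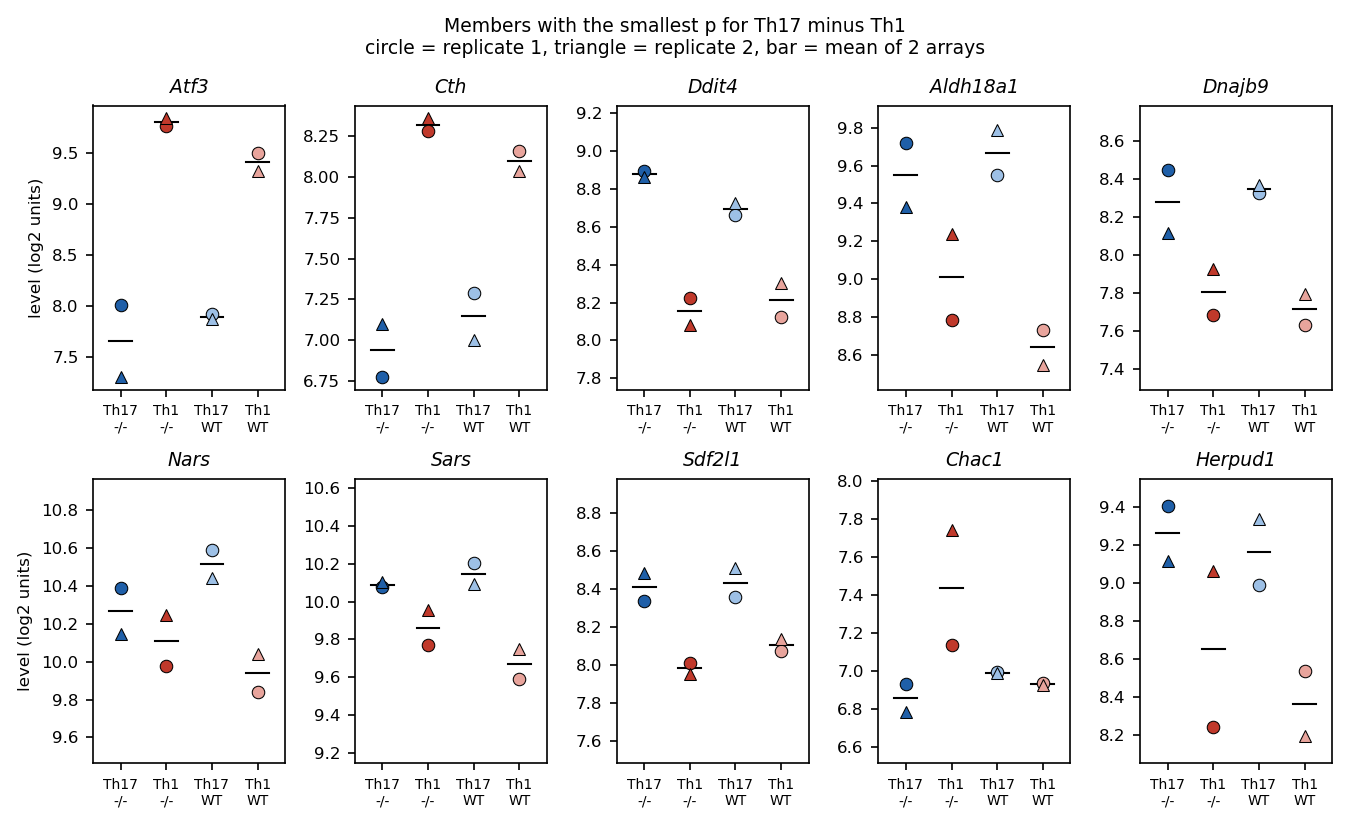
Levels in log2 units (vertical axis) on each array for the 10 members with the smallest p between the cell types over both genotypes, with Th17 left of Th1 within each genotype. Circles are replicate 1, triangles replicate 2 and bars the mean of 2 arrays. Atf3 and Cth are lower and Ddit4, Dnajb9 and Sdf2l1 higher on every Th17 array than on every Th1 array.

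**Figure D5:**
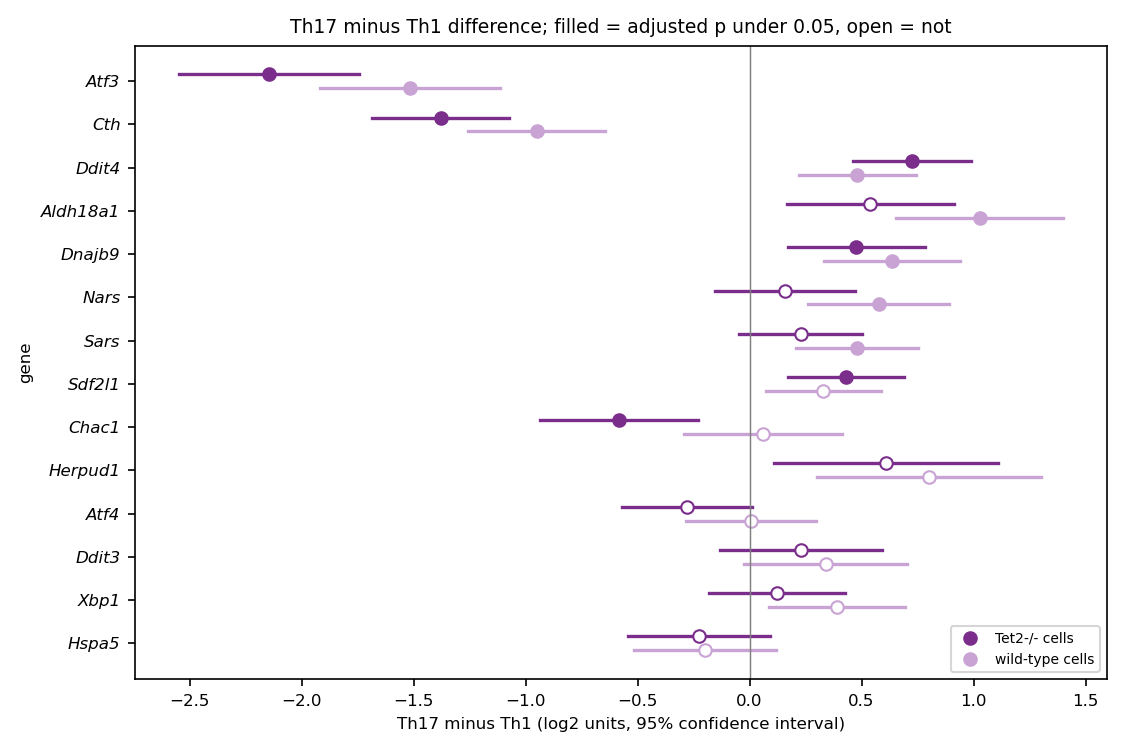
Th17 minus Th1 difference in log2 units (horizontal axis) with its 95% confidence interval for those 10 members and for Atf4, Ddit3, Xbp1 and Hspa5 (rows), in Tet2-/- cells (dark, upper) and wild-type cells (pale, lower). Filled points are called at an adjusted p under 0.05 and open points are not. Atf3 at -2.15 and -1.52 and Cth at -1.38 and -0.95 lie farthest to the left, and the interval of Atf4 includes 0 in both genotypes.

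The other genes of these pathways gave no call in either genotype contrast. Of 13 further cytoplasmic tRNA synthetases, 12 were higher without Tet2 in Th1 cells (median 0.09) and 2 in Th17 cells (median -0.07). Wars, for tryptophan, which interferon-γ is known to raise, read 10.1 and 9.99 in Tet2-/- Th1 cells, against 9.50 and 9.35 in wild-type Th1 cells, with a difference of 0.61 (limma adjusted p = 0.737), and Cars, for cysteine, differed by 0.28. Interferon-γ messenger RNA itself, Ifng, read 10.4 and 10.2 in Tet2-/- Th1 cells, against 11.6 and 11.9 in wild-type Th1 cells, and fell by 1.42 (limma adjusted p = 0.00391). In Th17 cells the differences were -0.06 for Wars, -0.20 for Cars and -0.22 for Iars, the isoleucine enzyme.

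Of 21 further amino acid transporters, 14 were higher in Th1 cells (median 0.02) and 11 in Th17 cells (median 0.02). Slc6a9, a glycine importer and known ATF4 target, read 7.93 and 8.59 in Tet2-/- Th1 cells, against 7.70 and 7.62 in wild-type Th1 cells, a difference of 0.60 (limma adjusted p = 0.824). In Th17 cells Slc6a9 read 7.41 and 7.16 in Tet2-/- cells, against 7.69 and 7.56 in wild-type cells, a difference of -0.34. Neither cell type showed overlap, and the directions were those of Chac1 and Phgdh. The difference of its contrasts was -0.94 (SE 0.25, limma adjusted p = 0.999).

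Of 22 further genes of serine, one-carbon, glutamine and proline metabolism, 15 were higher in Th1 cells (median 0.09) and 11 in Th17 cells (median -0.01). Bcat1, the cytosolic branched-chain aminotransferase, read 10.5 and 10.5 in Tet2-/- Th1 cells, against 10.1 and 10.2 in wild-type Th1 cells, a difference of 0.40 (limma adjusted p = 0.824). In Th17 cells Bcat1 read 9.81 and 9.69 in Tet2-/- cells, against 10.1 and 9.91 in wild-type cells, a difference of -0.23. Both comparisons lacked overlap. Tyms, the thymidylate synthase of dividing cells, differed by -0.48 in Th1 cells, and Shmt1, the cytosolic counterpart of Shmt2, by -0.30 in Th17 cells.

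Of 21 further ER chaperones, folding enzymes and degradation factors, 10 were higher in Th1 cells (median -0.01) and 11 in Th17 cells (median 0.01), with Crebrf, a regulator of the unfolded protein response, at 0.45 and 0.31. Of 23 sensors and switches of the stress response, 16 were higher in Th1 cells (median 0.06) and 12 in Th17 cells (median 0.01). Sesn1, a relative of Sesn2, differed by 0.39 in Th1 cells. Atf6, the ER stress sensor and transcription factor, differed by 0.35 in Th17 cells (limma adjusted p = 0.96).

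Between the cell types several of these genes were called in both genotypes. Crebrf rose by 0.85 in Tet2-/- and 1.00 in wild-type Th17 cells relative to Th1 cells, and the disulfide isomerase Pdia4 by 0.73 and 0.80. Sesn1 rose by 1.06 and 1.25, Sesn3 by 1.39 and 1.23, and Atf6 by 1.07 and 0.76. Eif2ak2, the double-stranded RNA sensor PKR, fell by 0.44 in Tet2-/- and by 0.96 in wild-type cells, and the transporter Slc43a2 rose by 0.66 and 0.57. Limma's adjusted p was at most 0.0455 for these 7 genes. Of the 21 ER genes 3 were called higher in Tet2-/- cells and 2 in wild-type cells, with 0 lower. Of the 23 sensors 4 were called higher and 1 lower in each genotype. In Tet2-/- cells 4 of the 21 transporters were called higher and 1 lower, and 1 of the 22 metabolism genes higher and 2 lower. In wild-type cells 1 transporter and 1 metabolism gene were called higher and 0 lower. The largest falls among the further lists in Tet2-/- cells were Slc6a9 at -0.97, Bcat1 at -0.76 and Wars at -0.68. These falls use the same Tet2-/- Th1 arrays as the Th1 genotype contrast. Over all genes 7.14% were called higher and 3.29% lower in Tet2-/- cells, and 5.30% and 3.17% in wild-type cells. Near the share called higher in wild-type cells were the 2 of 21 ER genes, 1 of 21 transporters and 1 of 22 metabolism genes.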

How the data were processed

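Total RNA was measured on 8 Affymetrix arrays, 1 per sample. Each probeset has 1 deposited log2 value on each array. The submitters' processing notes name RMA and Partek; no version or filter is stated in the sources used here, and log base 2 was inferred from the range. Of 35556 probesets, 21789 had 1 symbol, 1621 several and 12146 none listed. The probeset with the highest mean stood for a gene (19938 genes). Array signals carry no read depth, and the number of arrays limits the precision. Limma 3.58.1 estimated the 4 group means in 1 model over the 8 arrays (R 4.3.3; lmFit, eBayes with an intensity trend; 4 residual and 8.44 prior degrees of freedom). Tests were two-sided, adjusted by Benjamini-Hochberg over all 19938 genes and called at an adjusted p under 0.05. Replicates are called biological in the labels, which do not say whether they came from separate mice. Sex-linked levels differed between the replicates of both Th17 groups. Uty read 8.79 and 4.65 in Tet2-/- Th17 cells, and Xist read 5.20 and 10.1 in wild-type Th17 cells. Those replicates thus did not hold the same mix of mice, and for Th1 cells the values do not tell. The p-values measure the spread between these samples, which may be partly technical.

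Members, gene lists and tests were chosen with earlier results of these data known. Per-array values are given for the 8 members with the smallest p in each genotype contrast, for 10 between the cell types, and for Atf4, Ddit3, Xbp1 and Hspa5; a few members named for their role were added after their values were seen. The labels do not say whether equal replicate numbers pair the samples. Correlations of deviations between groups, from -0.19 to 0.05, gave no sign of pairing but cannot exclude a weak one, so no pairing was fitted in the main model. Alternatives covered probeset choice, normalization, array weights, the variance model, a replicate block, the Y-linked level and leaving out arrays. Each member had 1 probeset, so probeset choice could change its adjusted p but not its difference. The array weights, 0.73 to 1.27, were equal for both arrays of a group, so they could not lower a single array within it. Leaving out an array outside a contrast acts only through the shared spread.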

Additional observations from a re-analysis of the deposited data

Results flagged for a closer look

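Chac1 and Phgdh were set aside for a closer look because both Tet2-/- arrays lay above both wild-type arrays in Th1 cells and below both in Th17 cells. This held for 2 of 38 members, against 1.81% of all genes. The genes were picked for this pattern, so their differences are no separate support for it. For Chac1 the Tet2-/- minus wild-type difference was 0.51 log2 units in Th1 cells and -0.13 in Th17 cells, and the difference of these contrasts was -0.64 (SE 0.23, limma adjusted p = 0.999). For Phgdh the values were 0.38, -0.34 and -0.72 (SE 0.21, limma adjusted p = 0.999). Neither passed the adjustment over all genes. With 1 array left out, the Th1 difference of Chac1 was as small as 0.20 and the Th17 difference of Phgdh as small as -0.12. Groups of 2 arrays are too small for a search for single arrays far from their group.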

How the results depend on the processing

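The count of members called stayed at 0 in both genotype contrasts under all 20 alternatives, and at 0 in their difference and mean under all 19. Leaving out 1 array at a time, where the lone array left in a group was assumed to vary like the others, moved the members' median over 0.074 to 0.22 in Th1 cells, -0.15 to 0.00058 in Th17 cells, -0.32 to -0.14 for the difference of the contrasts, and -0.20 to -0.017 for Th17 minus Th1 in Tet2-/- cells. The count of members called between the cell types, 6 in Tet2-/- and 7 in wild-type cells, ran over 3 to 7 and 3 to 8 with 1 array left out. It was 3 and 2 when every probeset was tested, 3 and 3 without both arrays at the ends of the Y-linked level, 10 in Tet2-/- cells with dim genes left out or with array weights, and 4 in each genotype with the replicate block. The block changed no call in the genotype contrasts. A block with the replicate numbers crossed, chosen after seeing a same-number correlation of -0.19 in wild-type cells, gave 11 there. Signs of small differences reversed. Atf4 between wild-type cell types, 0.00, was -0.11 under quantile normalization, -0.012 with the Y-linked covariate and -0.029 without both arrays at the ends of the Y-linked level, and -0.051 to 0.061 with 1 array left out. Without those Y-end arrays Atf4 was 0.053 and Hspa5 0.023 in the Th17 genotype contrast. With 1 array left out Ddit3 ran over -0.19 to 0.31, Xbp1 over -0.045 to 0.12 and Hspa5 over -0.23 to 0.15 in the Th1 genotype contrast, Atf4 over -0.29 to 0.019 and Ddit3 over -0.22 to 0.11 in the Th17 genotype contrast, and Tars over -0.36 to 0.00074 and Aldh1l2 over -0.32 to 0.029 in the difference of the contrasts. The causes were not tested. With 2 arrays a group, the smallest difference called among the members was 0.43 log2 units, between the cell types.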
